A study of Mus musculus with 72 samples.

Results

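The presynaptic release machinery is the set of proteins that docks, primes and fuses synaptic vesicles, and the genes described here were taken by symbol: synaptotagmins, syntaxins, syntaxin-binding proteins, Rims, Unc13, liprins-α (Ppfia), Cadps, Erc, Vamp, complexins (Cplx) and Sv2 genes, with Bsn, Pclo, Snap25 and Snap91. The rule found 73 of the 20807 autosomal protein-coding genes of the annotation. Grouped by symbol alone, 17 encode synaptotagmins, 23 SNARE proteins, 17 chaperones and priming factors, 12 active zone scaffolds and 4 vesicle proteins. No measured value entered the choice. The symbols also bring in family members known mainly from other compartments, such as Stx12 of endosomes and Stx17 of autophagosomes.

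Calcium entering a nerve terminal is sensed by synaptotagmins such as Syt1. Fusion is driven by the SNARE proteins of vesicle (Vamp) and plasma membrane (syntaxin, Snap25). Unc13, Cadps, complexin and some Stxbp proteins bring these into a ready state. Rims, Erc, liprin-α, bassoon (Bsn) and piccolo (Pclo) proteins build the active zone, the scaffold that holds vesicles beside calcium channels. Lysine 27 of histone H3 carries 1 to 3 methyl groups placed by Polycomb repressive complex enzymes; the monomethyl form, H3K27me1, is known from the bodies of transcribed genes, whereas the trimethyl form marks silenced ones.

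CUT&RUN, in which an antibody directs micrococcal nuclease to cut out marked chromatin, was applied to the nucleus accumbens of wildtype adult male mice with antibodies to H3K27me1 and H3K27me2 and with IgG. One cohort held control mice and mice called susceptible or resilient after chronic social defeat stress, each mark being profiled in 4 libraries of every group. A second cohort crossed standard rearing or early life stress (ELS) with no further stress or a subthreshold defeat, and had 3 libraries for each. Of it, only H3K27me1 in mice with ELS and subthreshold defeat against standard-reared controls without defeat is covered. The authors' 5 deposited tables list differential sites, regions of at least 1000 bp merged from sliding windows, each with normalised reads per library, and none compares susceptible with resilient mice. A site is described as called, and as higher or lower, where the authors' adjusted p was below 0.05, and it was given to a gene where it overlapped the gene or the 1000 bp before its start. The tables hold chromatin sites and no expression, so defining cell type markers could not check the tissue. In bulk tissue, a change in cell composition and a change per cell cannot be told apart.

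Reads per 1000-bp bin averaged 20.57 to 30.39 in the H3K27me1 libraries of the defeat cohort, 10.56 to 40.63 in its H3K27me2 libraries and 5 to 7.78 in the ELS cohort. The labels do not tie libraries to separate mice, so any spread given here is one between libraries. The authors' test behind the called sites of the 4 defeat tables summed reads within a group and does not measure that spread. Susceptible and resilient groups were set against the same 4 control libraries of each mark.

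Across the 5 tables, 268 called sites fell in 37 of the 73 members (50.7%, against 32.8% of all genes with a site in any table), and the other 36 members held none. Introns held 223 of these sites and exons 45. None lay within 1000 bp of a gene start, and the nearest edge, in Vamp1 in the ELS table, was 3250 bp away. The median length was 144.5 kb for members with a site and 23.4 kb for those without. All members of 100 kb or more except Cadps and Sv2b, 21 of 23 (91.3%), held a site in some table, against 78% of all genes of that length. Of the 50 shorter members 16 (32%) did, against 26.9% of all shorter genes.

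Called sites that reached coding exons show which parts of the proteins' genes the regions cover. They were read from GENCODE M21 transcripts (mm10) on the coding strand, with the 2 bases of each CG dinucleotide in capitals, exons being numbered in the transcript with the longest coding sequence. The stretch of Pclo is the central 300 bases of the coding part of its site, and the others are whole coding exons.
Pclo exon 6, chr5:14681351-14681650, + strand, lower in susceptible mice: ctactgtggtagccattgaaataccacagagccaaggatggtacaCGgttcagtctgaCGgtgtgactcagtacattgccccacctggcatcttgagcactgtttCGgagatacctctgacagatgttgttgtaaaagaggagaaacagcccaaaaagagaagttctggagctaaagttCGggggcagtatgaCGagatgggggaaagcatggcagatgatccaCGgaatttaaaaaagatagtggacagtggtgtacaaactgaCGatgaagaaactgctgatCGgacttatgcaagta
Rims2 exon 14, chr15:39506966-39507034, + strand, higher in both groups of defeated mice: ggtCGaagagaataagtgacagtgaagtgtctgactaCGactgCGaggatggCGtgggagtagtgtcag
Stxbp5 exon 7, chr10:9838077-9838160, - strand, higher in both groups of defeated mice: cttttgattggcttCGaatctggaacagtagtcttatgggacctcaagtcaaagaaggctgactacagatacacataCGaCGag
Ppfia2 exon 13, chr10:106837281-106837343, + strand, higher in susceptible mice: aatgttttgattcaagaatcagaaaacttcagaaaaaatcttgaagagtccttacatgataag
Vamp4 exon 5, chr1:162588196-162588296, + strand, lower in susceptible mice: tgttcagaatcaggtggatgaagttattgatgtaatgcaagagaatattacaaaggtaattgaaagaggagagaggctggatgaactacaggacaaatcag
Stx12 exon 4, chr4:132863159-132863296, - strand, lower in susceptible mice: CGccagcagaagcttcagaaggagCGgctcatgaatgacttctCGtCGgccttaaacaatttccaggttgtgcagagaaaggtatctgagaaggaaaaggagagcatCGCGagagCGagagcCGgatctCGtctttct
Stxbp5 exon 27, chr10:9762745-9762965, - strand, higher in the ELS table: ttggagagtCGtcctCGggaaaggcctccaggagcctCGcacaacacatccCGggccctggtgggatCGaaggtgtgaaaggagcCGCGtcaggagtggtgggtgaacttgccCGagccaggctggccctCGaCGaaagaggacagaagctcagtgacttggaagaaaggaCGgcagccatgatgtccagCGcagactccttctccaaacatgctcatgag
Stxbp5l exon 16, chr16:37208044-37208261, - strand, lower in the ELS table: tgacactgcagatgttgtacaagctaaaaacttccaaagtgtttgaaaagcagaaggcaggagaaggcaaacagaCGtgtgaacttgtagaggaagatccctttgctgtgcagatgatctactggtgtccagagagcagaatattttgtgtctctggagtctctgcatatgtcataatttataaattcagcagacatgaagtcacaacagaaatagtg

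The coding part of the lower Pclo site was 47.8% G and C and held 29 CG dinucleotides in 1200 bases. In the susceptible table, 11 coding stretches in higher sites of 6 members had a median of 42.5% G and C, with a range of 28.6% to 52.2%. The 7 stretches in lower sites of 5 members had a median of 51.1%, with a range of 37.6% to 52.7%. In the ELS table the 9 stretches in higher sites of 6 members had a median of 52.8% (range 36.8% to 59.7%). These are descriptions of few exons, several of which share a gene.

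The first comparison asks where H3K27me1 differed between susceptible and control mice. Most of the change lay in some of the active zone scaffold genes and was an increase: 125 member sites were higher and 15 lower. Of the 12 scaffold genes 6 had a site, and Bsn, Ppfia1, Ppfia3, Ppfia4, Rims3 and Rims4 had none. Rims2, with 26 higher sites, and Rims1, with 19, encode scaffolds that tether vesicles and calcium channels; Ppfia2, with 24, encodes liprin-α2, which organises active zone assembly; and Pclo, with 23 higher and 2 lower sites, encodes the large scaffold piccolo. These 4 genes, singled out after their values were seen, held 92 of the 125 higher sites (73.6%), and the other 69 members held 33 higher and 13 lower. A called site was found in 27 of the 73 members (37%), against 20.9% of all genes; 22 members (30.1%) had a higher site, against 8.34% of all genes, and 9 (12.3%) a lower one, against 16%.

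**Figure D1:**
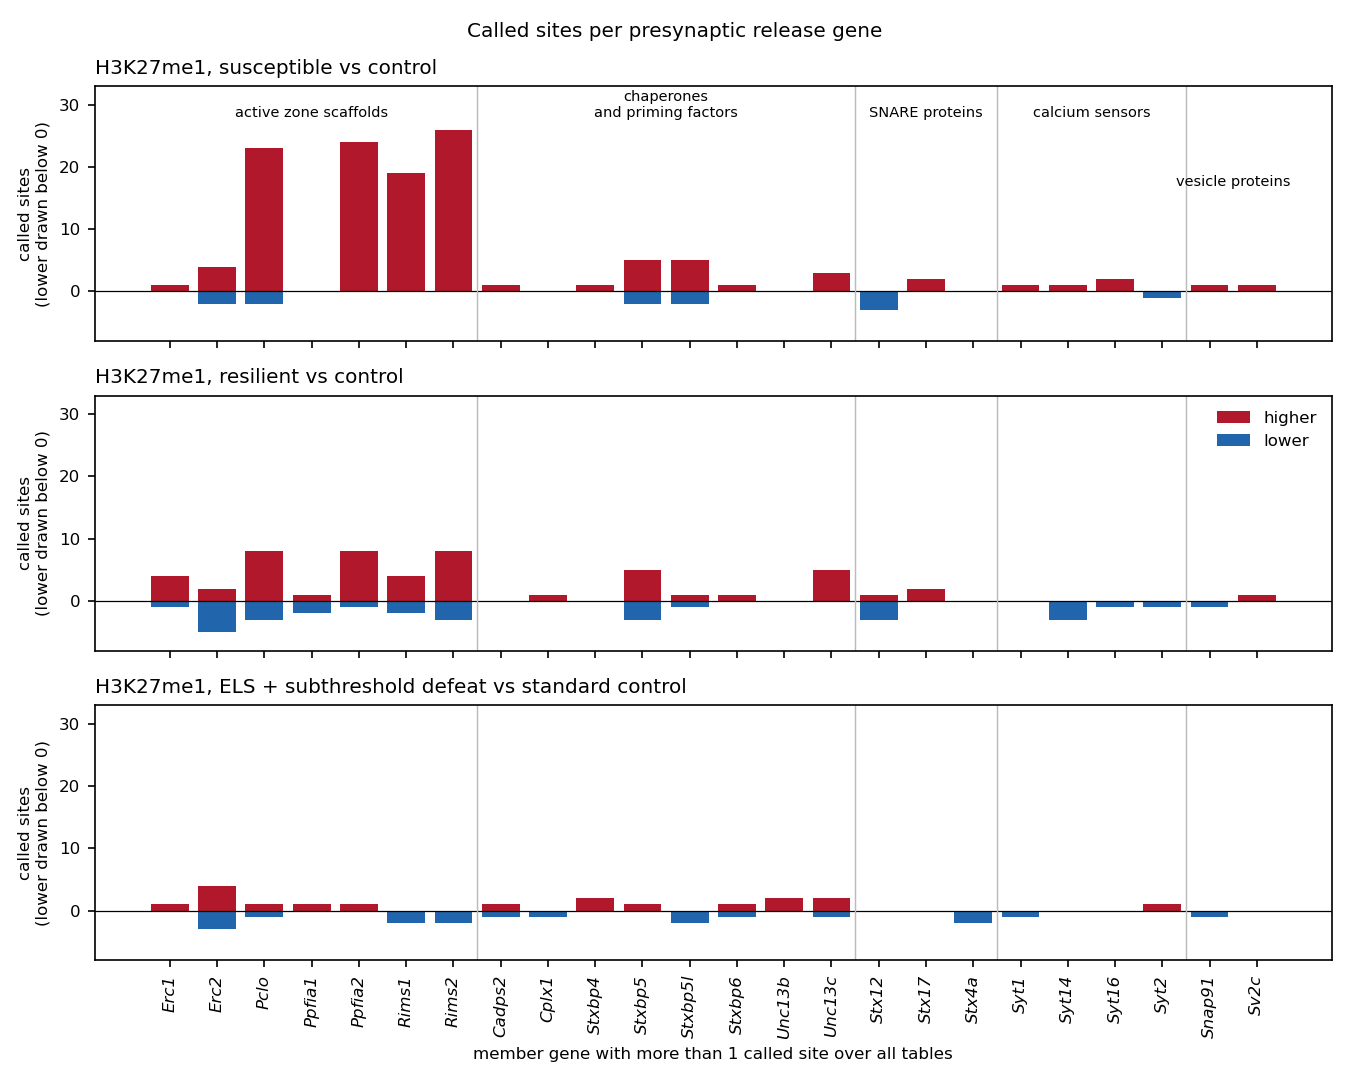
Number of called sites, by the authors' adjusted p, in each of the 24 members with more than 1 called site over all tables, for the 3 H3K27me1 tables. Higher sites are drawn upwards in red and lower sites downwards in blue. Grey lines part the groups made by symbol, and the synaptotagmin genes are labelled calcium sensors. Pclo, Ppfia2, Rims1 and Rims2 hold 19 to 26 higher sites each in susceptible mice, 4 to 8 in resilient mice and at most 1 in the ELS table.

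Long genes held higher sites more often across the genome: 35.5% of all genes of 100 kb or more had a higher site, and called sites in such genes were higher in 75.0% of cases across the genome against 50.3% of all called sites. Among the 23 members of that length, 18 (78.3%) had a higher site; among the 50 shorter ones, 4 (8.0%) had one, against 4.84% of all shorter genes. The share of higher sites among all called sites of members was 89.3%, and among those outside the 4 scaffold genes it was 71.7%. Ranked among all genes by the number of higher sites, Rims2 stood 25th, Ppfia2 29th, Pclo 36th and Rims1 43rd, so other genes held more.

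Among the members, Pclo had 7.17 called sites per 100 kb, Rims2 5.35, Ppfia2 5.15 and Rims1 3.66. Erc2, which encodes a scaffold that binds Rims proteins, is the longest member at 856 kb and had 4 higher and 2 lower sites, or 0.70 per 100 kb. Cadps2 (577 kb), which encodes a priming factor of dense-core vesicles, and Syt1 (513 kb), the main calcium sensor of fast release, had 1 higher site each, and Cadps (451 kb) had none. The plot of gene length shows the 4 scaffold genes far above other members of like length.

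**Figure D2:**
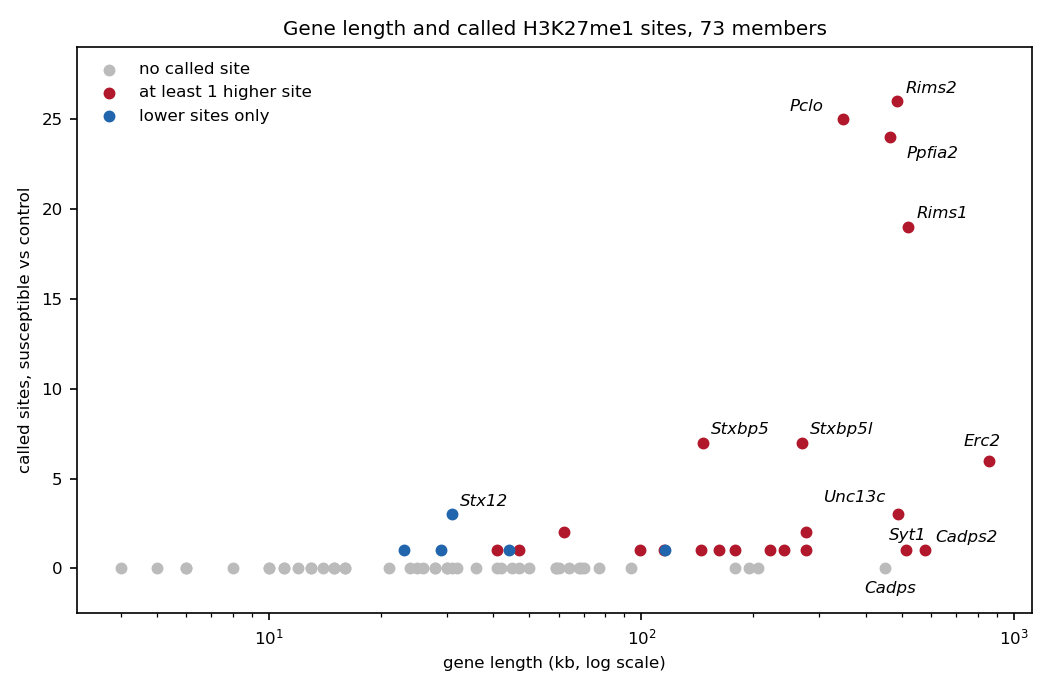
Length of each of the 73 members (kb, log scale) against its number of called H3K27me1 sites in susceptible mice; red points had at least 1 higher site, blue points lower sites only and grey points none. Members of like length, such as Rims1 with 19 sites, Syt1 with 1 and Cadps with 0, differ widely.

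The higher sites ran through most of each scaffold gene. In Rims2 their centres lay 14.5 to 466.4 kb from the start, or 3.0% to 95.9% of the gene's length, and in Rims1 14.1 to 449.7 kb, or 2.7% to 86.5%. Ppfia2 had its first at 25 kb and its last at 420.2 kb, and Pclo at 4.9 and 326.0 kb. Each single difference was modest: the median log2 difference between group means of log2(normalised reads + 1) was 0.44 over the Rims2 sites (range 0.35 to 0.58), 0.44 in Rims1 (0.32 to 0.50), 0.44 in Ppfia2 (0.31 to 0.60) and 0.37 in Pclo (0.30 to 0.50).

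**Figure D3:**
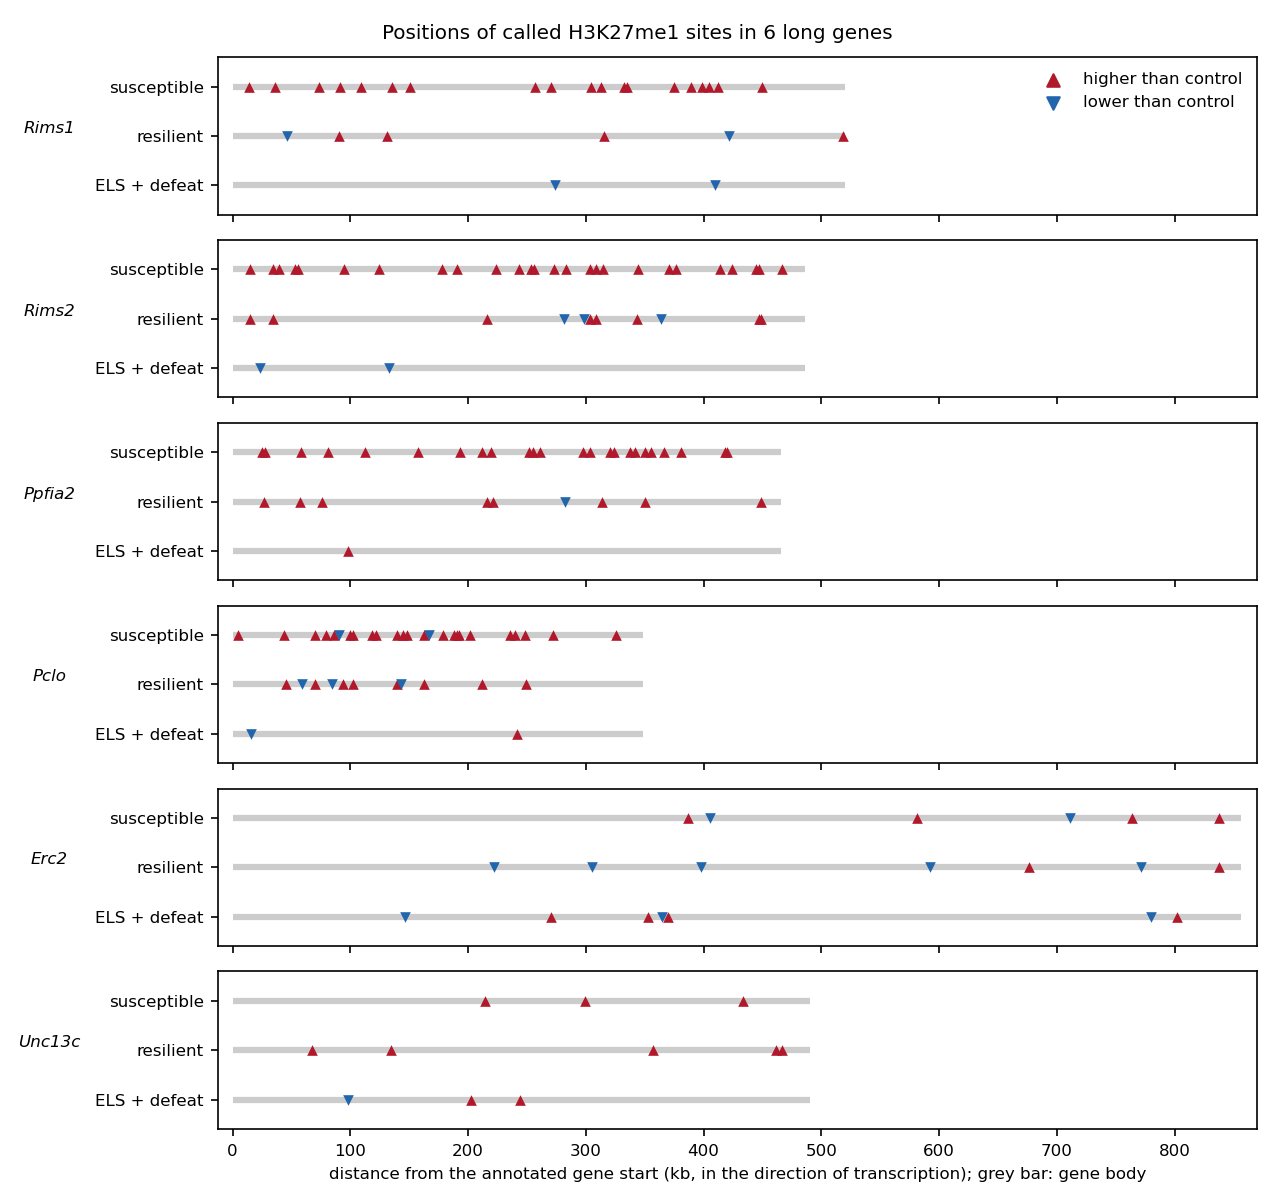
Centres of called H3K27me1 sites along 6 long members, as distance from the annotated gene start in kb; the grey bar is the gene body, red triangles are higher and blue triangles lower sites, with 1 row per table. In susceptible mice higher sites lie along nearly the whole of Rims1, Rims2, Ppfia2 and Pclo, whereas Erc2 and Unc13c, of greater or similar length, have 6 and 3 sites.

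Values per library are given for the leading site of a gene, the called site with the smallest authors' p. The Rims1 leading site (chr1:22654801-22656600, intronic) held 152, 167, 177 and 194 normalised reads in susceptible libraries and 106, 125, 138 and 141 in controls, a log2 difference of 0.44 ± 0.14 (SE). Every susceptible library lay above every control library there. At the Rims2 leading site (chr15:39541501-39544100, intronic) the values were 221, 247, 288 and 304 against 168, 183, 202 and 225, and the lowest susceptible library lay below the highest control (0.44 ± 0.14). Ppfia2 (chr10:106806401-106809400, intronic) had 262, 265, 275 and 324 reads against 166, 194, 195 and 260.4, with the groups just apart (0.48 ± 0.15). In Pclo (chr5:14632401-14633900, intronic) the reads were 171, 181, 200.5 and 203 against 125, 129.7, 138 and 159.8, again apart (0.45 ± 0.14).

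Summed over a gene's own higher sites, which were chosen by this same contrast, the reads describe how evenly the libraries carry the difference. In Rims1 the 19 sites together held 2216.7 to 2377.7 reads in susceptible libraries and 1687.3 to 1754.7 in controls, or 2300.5 ± 70.7 against 1711.8 ± 29.6 (SD, n = 4 each). The Rims2 sum was 3621.7 ± 257.5 against 2670.8 ± 139.1, and the Ppfia2 sum 3648.2 ± 391.4 against 2713.8 ± 232.6. Neither pair of groups overlapped. In Pclo the sums were 3939.6 ± 381.0 and 3046.3 ± 293.6, and here the lowest susceptible library (3420.7) lay below the highest control (3440.3). The same library was highest within its group for all 4 genes, in both groups.

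**Figure D4:**
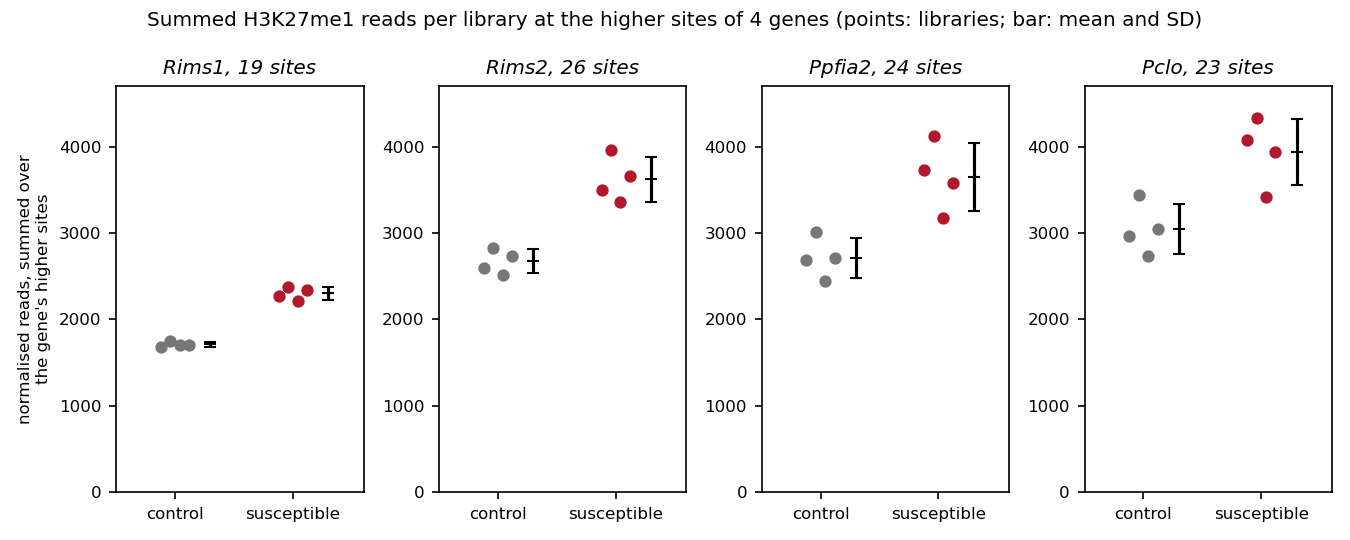
Normalised H3K27me1 reads of each library summed over the higher sites of Rims1, Rims2, Ppfia2 and Pclo in susceptible mice; points are the 4 libraries per group, with the mean and SD beside them. Sums in susceptible libraries exceed those of controls by 29.3% (Pclo) to 35.6% (Rims2), and only the Pclo groups overlap.

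Among chaperones and priming factors, 17 sites were higher and 4 lower. They lay in 7 of 17 members, beside 20.9% of all genes and 47.9% of those of 100 kb or more. Stxbp5 and Stxbp5l, which encode the tomosyns that hold SNARE proteins back from fusion, had 5 higher and 2 lower sites each. The Stxbp5 leading site (chr10:9757101-9758500, exonic, 143.3 kb from the start) held 94.8, 113, 118 and 125 reads in susceptible libraries and 72.5, 75.4, 79.9 and 81.8 in controls (0.53 ± 0.14), with the groups apart. The Stxbp5l leading site (chr16:37300901-37302300, intronic) held 104, 114, 114 and 135 against 78.3, 78.9, 89.2 and 101 (0.42 ± 0.14), also apart. Unc13c, a vesicle priming gene, had 3 higher sites, and the reads at its leading site (chr9:73753601-73755400, intronic) were 128, 149, 149.6 and 156 against 73.7, 105, 115 and 122 (0.51 ± 0.15). Stxbp3, Stxbp4, Stxbp6 and Cadps2 had 1 higher site each. The Stxbp6 site (chr12:44863201-44864200, intronic) held 70.2, 72.2, 77.1 and 95.8 reads against 48.7, 50.6, 54.2 and 67.2 (0.51 ± 0.15), and every susceptible library lay above the controls. The Cadps2 site (chr6:23719501-23720600, intronic) held 83.5, 85.0, 90.3 and 91.2 reads against 53.3, 59.7, 61.1 and 67.5 (0.53 ± 0.14).

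SNARE genes went both ways, with 5 higher and 6 lower sites in 8 of 23 members, beside 20.9% of all genes with a site. Stx12, an endosomal syntaxin gene, had 3 lower sites within its 31 kb and none higher. Its leading site (chr4:132862001-132863400, exonic) held 98.0, 99.3, 107 and 114 reads in susceptible libraries and 109.9, 142, 152 and 154 in controls (-0.40 ± 0.14), so a single control library overlapped the susceptible ones. Vamp4, Stx3 and Stx16 had 1 lower site each, all exonic; at the Vamp4 site (chr1:162587501-162588600), chosen for display after its values were seen, the reads were 73.1, 77.7, 78.4 and 82.3 against 96.0, 110.3, 119 and 130.2 (-0.54 ± 0.14). Stx17 had 2 higher sites near its end, the leading one (chr4:48182901-48185000, exonic) with 278, 309, 318 and 364 reads against 222, 226, 249 and 253 (0.41 ± 0.14). Stx7, Stx8 and Stx18 had 1 higher site each. The genes of the core fusion complex of the nerve terminal, Snap25, Vamp2 and Stx1a among them, had no called site in this table.

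Of the synaptotagmin genes, 4 of 17 had sites, beside 20.9% of all genes. Syt16 had 2 higher, Syt1 and Syt14 1 higher each, and Syt2 1 lower. The lower Syt2 site (chr1:134759301-134760300, intronic) held 68.6, 70.1, 78.4 and 84.7 reads against 82.1, 107, 107 and 112 (-0.42 ± 0.14), and it also overlaps Ppp1r12b, so it cannot be given to Syt2 alone. Among vesicle proteins, Snap91, a clathrin adaptor gene of vesicle recycling, and Sv2c had 1 higher site each. At the Snap91 site (chr9:86840101-86841100, intronic) the reads were 87.1, 87.6, 102 and 112 against 54.2, 68.4, 71.5 and 81.8 (0.49 ± 0.15). The scaffold genes Erc2 and Erc1 complete the list. The Erc2 leading site (chr14:28027001-28028100, intronic) was a lower one, with 44.8, 60.5, 65.2 and 72 reads against 80.0, 85.3, 90.5 and 93.8 (-0.54 ± 0.15). The Erc1 site (chr6:119625201-119626400, intronic) held 116, 151, 152 and 159 against 106, 108, 114 and 122 (0.35 ± 0.14), and the groups overlapped.

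Per the file headers the authors' test here was a G-test on reads summed within a group. A fit with limma, which measures the spread between libraries on log2(normalised reads + 1) over every listed site, gave an unadjusted p below 0.05 at 136 of the 140 member sites (97.1%, against 96.6% of all listed sites), but sites were listed because of this same contrast. With Benjamini-Hochberg adjustment over the 270324 windows the authors tested, limma passed 0 of the 140, the smallest adjusted p being 0.267. Susceptible and control libraries did not overlap at 76 of the 140 sites (54.3%), against 52.8% of all called sites. The members' median size was the same as elsewhere: in the authors' deposited table the median log2 fold change of higher sites was 0.43 for members and 0.43 for all called sites. Enrichment over IgG was also higher in susceptible mice at 112 of the 125 higher sites (89.6%, against 91.1% of all higher sites), in the authors' deposited table. It was also lower at 13 of the 15 lower ones (86.7%, against 94.9% of all lower sites).

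The second comparison asks the same of resilient mice. Sites were fewer and more mixed: 52 were higher and 31 lower, in 20 of 73 members (27.4%, against 15.5% of all genes). A higher site was found in 15 members (20.5%, against 8.13% of genes), and a lower one also in 15 (20.5%, against 10.7%). Among members of 100 kb or more these shares were 47.8% higher and 52.2% lower, against 32.3% and 28.4% of all genes of that length. Of the member sites 62.7% were higher, against 60.7% of called sites in all genes of 100 kb or more. Both directions occurred in 10 members, against 4 in the susceptible table.

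The scaffold genes again held most sites, in 7 of the 12, beside 15.5% of all genes with a site. Rims2 had 8 higher and 3 lower, Pclo 8 and 3, Ppfia2 8 and 1, Rims1 4 and 2, Erc1 4 and 1, Erc2 2 and 5, and Ppfia1 1 and 2. The Ppfia2 leading site (chr10:106685601-106686900, intronic) held 95.3, 99.96, 104 and 119 reads in resilient libraries and 60.4, 60.9, 64.3 and 67.9 in controls (0.71 ± 0.14), the largest log2 difference among the leading sites given here for resilient mice. The lowest resilient library lay well above the highest control. At the Rims2 leading site (chr15:39212301-39214100, intronic) the reads were 179, 181, 189 and 205 against 136, 142, 146 and 152 (0.39 ± 0.13), and at that of Pclo (chr5:14607901-14609400, intronic) 210.0, 221, 238 and 242 against 174, 176, 176 and 194 (0.34 ± 0.13). Both were apart. The Rims1 leading site (chr1:22674101-22675600, intronic) held 151, 189, 194 and 216 against 123, 129.9, 148 and 179 (0.37 ± 0.15), with overlap, and so did that of Ppfia1 (chr7:144492701-144493800, intronic), with 137, 178, 194 and 206 against 119.7, 129.9, 134 and 167 (0.37 ± 0.15).

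Erc2 and Ppfia1 were the scaffold genes with more lower than higher sites. The Erc2 leading site (chr14:27844201-27845200, intronic) held 45.1, 47.7, 50.1 and 52.1 reads in resilient libraries against 71.1, 71.8, 74.2 and 75.4 in controls (-0.58 ± 0.13), with tight groups well apart, and the groups were apart at all 5 of the lower Erc2 sites. The Erc1 leading site (chr6:119573101-119574500, exonic) held 116, 119, 119 and 149.8 reads against 74.5, 80.9, 88.9 and 112 (0.50 ± 0.15).

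The group of chaperones and priming factors had 13 higher and 4 lower sites, in 5 of 17 members. These include the tomosyn genes Stxbp5 and Stxbp5l, whose proteins hold SNARE proteins back from fusion, so the counts do not describe priming genes alone. Unc13c had 5 higher and none lower, and its leading site (chr9:73502001-73503200, intronic) held 84.3, 98.3, 109 and 113 reads against 56.9, 66, 73.6 and 74.2 (0.57 ± 0.14). Stxbp5 had 5 higher and 3 lower; its leading site (chr10:9814001-9815200, intronic) held 137, 148, 167 and 179.6 against 109, 109, 129.9 and 132 (0.39 ± 0.14). Stxbp5l had 1 of each. At its leading, lower site (chr16:37276801-37277800, intronic) the reads were 62.1, 62.2, 66.6 and 71.3 against 80.7, 85.8, 87.2 and 116 (-0.48 ± 0.14). At the single Stxbp6 site (chr12:44970601-44971600, intronic) they were 74.9, 85.4, 98.0 and 125 against 67.6, 68.7, 71.8 and 74.5 (0.41 ± 0.15). All 4 of these leading sites, chosen by the smallest authors' p, had groups that did not overlap, as did 54.7% of all called sites. Cplx1, a complexin gene, had 1 higher site.

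Sites were found in 3 of 17 synaptotagmin genes, beside 15.5% of all genes. Syt14 had 3, Syt2 1 and Syt16 1, and all 5 were lower. The Syt2 site (chr1:134714901-134716400, intronic) held 119, 126, 131 and 141 reads against 145, 152, 178 and 188 (-0.34 ± 0.14). Syt14 and Syt16 had higher sites in susceptible mice, at other positions. Among SNARE genes, Stx12 had 3 lower sites and 1 higher, 200 bp from the nearest lower one. The leading Stx12 site (chr4:132865301-132867600, intronic) held 223, 224, 225 and 276 reads in resilient libraries against 297, 297, 322 and 338 in controls (-0.41 ± 0.14), with the groups apart. Stx17 had 2 higher sites and Stx1a, a plasma membrane SNARE gene of the terminal, 1 lower. Snap91, higher in susceptible mice, had 1 lower site (chr9:86823701-86824700, exonic) with 40.2, 53.6, 57.6 and 57.8 reads against 69.8, 72, 75.4 and 91.3 (-0.56 ± 0.15), at another position. With limma the unadjusted p was below 0.05 at 82 of the 83 member sites (98.8%, against 97.6% of all listed sites) and 0 passed adjustment over 275586 windows (smallest adjusted p 0.424). Without 1 library, limma's unadjusted p exceeded 0.05 at 4 of the leading sites: that of Rims1 without resilient library 30 (log2 difference 0.30) or control library 25 (0.30) or 34 (0.33), that of Ppfia1 without resilient library 27 (0.30) or 30 (0.33) or control library 28 (0.31), that of Stxbp6 without resilient library 36 (0.28) and that of Syt2 without control library 25 (-0.28). The groups were apart at 50 of the 83 sites (60.2%, against 54.7% of all called sites). Enrichment over IgG was also higher in resilient mice at 45 of the 52 higher sites (86.5%, against 86.6% of all higher sites). It was also lower at 28 of the 31 lower ones (90.3%, against 93.7%).

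Susceptible and resilient values are set side by side, although both rest on the same control libraries. The 4 long scaffold genes held 92 higher and 2 lower sites in susceptible mice and 28 higher and 9 lower in resilient mice. In Sv2c, which encodes a vesicle protein enriched in the basal ganglia, susceptible libraries held 76.6, 79.0, 81.1 and 92.1 reads against 42.6, 57, 64.5 and 66.1 (chr13:96116801-96117900), and resilient libraries 69, 74.5, 78.7 and 80.9 against 46.2, 49.8, 50.2 and 53.6 (chr13:96116301-96117300). Both were apart from controls, as were 52.8% of all called sites in the susceptible table and 54.7% in the resilient table. Whether the susceptible and resilient counts differ was not tested.

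Other genes of the release pathway formed a list of 40 genes for vesicle cycling, Rab3 and endocytosis partners. In susceptible mice 19 of the 40 had a site, beside 20.9% of all genes, with 40 higher and 21 lower sites; Dnm3, a dynamin gene of vesicle endocytosis, had 7 higher and 1 lower, Amph and Synpr 6 higher each, and Rab3gap2 4 lower. In resilient mice 16 had a site, beside 15.5% of all genes, with 16 higher and 15 lower. For H3K27me2, 1 of the 40 had a site in susceptible mice, beside 0.769% of all genes, and 0 in resilient mice, beside 1.22%. Among markers of other cell types, the microglial receptor gene Cx3cr1 had 6 lower sites in susceptible and 1 in resilient mice, and the astrocyte transporter gene Slc4a4 had 3 higher in susceptible mice. In susceptible mice a site was found in 1 of 7 astrocyte, 1 of 6 microglial, 1 of 7 oligodendrocyte and 0 of 5 vascular markers, beside 20.9% of all genes. The part of these markers in the members' result was not tested.

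H3K27me2, the dimethyl mark, was called in a single member in both defeat tables. Cadps2 had 3 higher sites in susceptible mice, where 0.769% of all genes had a site and 0.509% a higher one, and 1 lower site in resilient mice, where 1.22% had a site and 0.596% a lower one. The leading susceptible site (chr6:23692701-23693700, intronic) held 74.1, 74.1, 76.3 and 97.1 reads against 48.6, 49.6, 60.8 and 63.9 in controls (0.52 ± 0.16). The others, at 101.7 and 234.2 kb from the gene start, held 80.0 to 94.1 against 40.3 to 74.9 and 72.4 to 103 against 47.1 to 71. All 3 had groups that did not overlap, as did 57% of all called H3K27me2 sites of that table. The resilient site (chr6:23803701-23804800, intronic, 35.2 kb from the start) held 50.9, 61.5, 68.4 and 72.2 against 84.4, 85.9, 94.6 and 99.0 (-0.53 ± 0.16), also apart, as were 58.6% of called sites there. All are separate positions within 577 kb of gene, as is the H3K27me1 site that was higher in susceptible mice. In limma, 0 of the 3 and 0 of the 1 passed adjustment over all windows (smallest adjusted p 0.608 and 0.211), and all 4 had an unadjusted p below 0.05, as did 93.2% and 95.6% of all listed sites.

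The last comparison asks where H3K27me1 differed in mice with ELS and subthreshold defeat from standard-reared controls. In the authors' calls the members were split: 21 sites were higher and 20 lower, in 24 of 73 members (32.9%, against 13.6% of all genes). A higher site was found in 15 members (20.5%, against 9.79% of genes) and a lower one in 14 (19.2%, against 5.44%). Among members of 100 kb or more these shares were 52.2% and 43.5%, against 42.4% and 25.6% of all genes of that length. The balance of directions depended on the scaling: limma had 20 higher and 20 lower member sites with an unadjusted p below 0.05 as deposited, and 1 higher and 20 lower with median-ratio library factors. Called sites in genes of 100 kb or more were higher in 67.1% of cases across the genome, and member sites in 51.2%. The authors tested this table with a negative binomial model, and single differences were larger than in the defeat tables: the median log2 fold change in the authors' deposited table was 0.87 for higher member sites and -0.79 for lower ones, against 0.98 and -0.95 for all called sites. Libraries here were shallower.

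The scaffold genes that led in susceptible mice held few sites in the ELS table. Rims1 and Rims2 had 2 lower sites each and none higher, Pclo 1 of each and Ppfia2 1 higher. The Rims1 leading site (chr1:22531801-22533100, intronic) held 18.3, 32.1 and 37.3 reads with ELS and defeat and 60.3, 63.2 and 69.7 in controls (-1.17 ± 0.24), and that of Rims2 (chr15:39221101-39222100, intronic) 37.8, 47 and 49.5 against 69.7, 76.1 and 77.8 (-0.73 ± 0.19). Both lay between positions that were higher in susceptible mice, without overlapping one. The Ppfia2 site (chr10:106567401-106568600, intronic) held 85.2, 85.9 and 88.3 against 44.7, 52.3 and 57.3 (0.74 ± 0.18). At the Pclo leading site (chr5:14756101-14757100, intronic) the reads were 159, 173 and 180.0 against 129.9, 137 and 143 (0.32 ± 0.18), where limma's unadjusted p was 0.101 and median-ratio library factors turned the difference to -0.31. No member site of the ELS table overlapped one of another table.

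**Figure D5:**
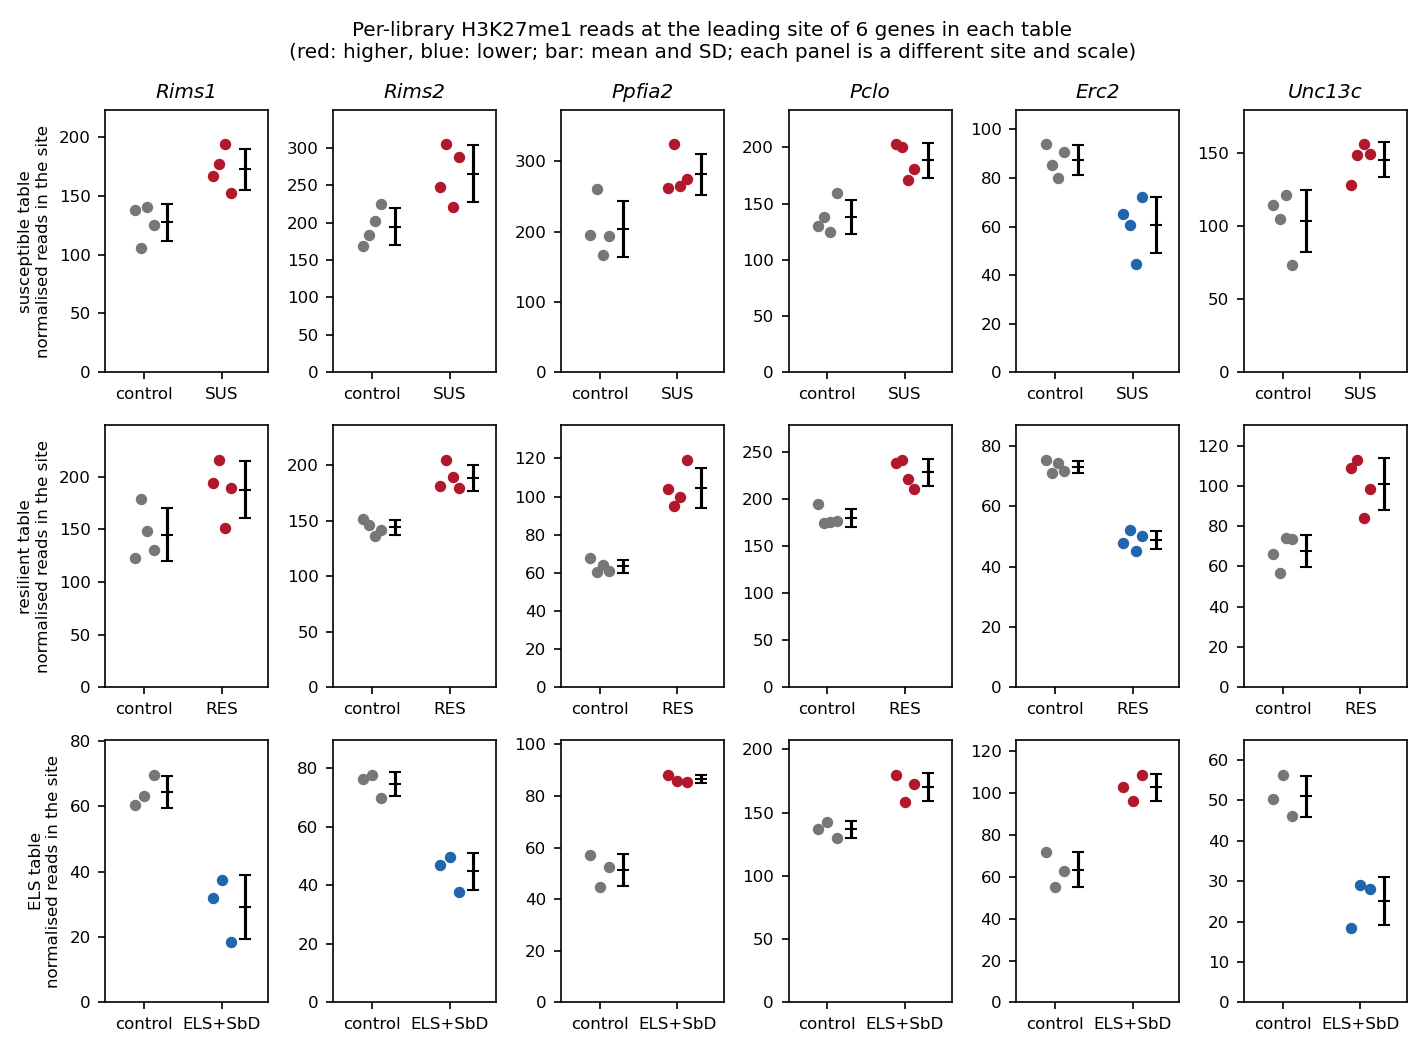
Normalised H3K27me1 reads per library at the leading site of Rims1, Rims2, Ppfia2, Pclo, Erc2 and Unc13c in the susceptible, resilient and ELS tables; grey points are controls, red points a group with higher and blue points one with lower reads, with mean and SD beside them. By reads, Rims1 and Rims2 are higher than control in both defeat tables and lower in the ELS table, at different sites. Unc13c is lower only at its leading ELS site. Enrichment over IgG goes the other way at the Rims2 site of resilient mice and the Erc2 site of the ELS table.

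Erc2 held most sites, 4 higher and 3 lower, spread from 146.1 to 802.0 kb. Its leading site (chr14:27992001-27993100, intronic) held 96.1, 103 and 109 reads against 55.4, 62.8 and 72.1 (0.69 ± 0.19), and a lower site lay 4.5 kb from it. The Erc1 site (chr6:119574801-119575800, exonic) held 66.3, 78.8 and 79.1 against 33.6, 47.6 and 49.7 (0.78 ± 0.20). Of the chaperones and priming factors, 9 of 17 had sites, beside 13.6% of all genes and 55.8% of those of 100 kb or more. Of these sites 9 were higher and 7 lower. Unc13b, a paralogue of the main Unc13a priming gene, had 2 higher sites, both exonic, at 179.4 and 204.9 kb from its start, and Stxbp4 2 higher. Unc13c had 2 higher and 1 lower, the lower one leading (chr9:73870701-73871800, intronic) with 18.4, 28.1 and 28.9 reads against 46.2, 50.4 and 56.4 (-1.02 ± 0.21). Stxbp5 had 1 higher site (chr10:9762501-9763500, exonic) with 93.3, 94.9 and 123 against 57.5, 66.1 and 76.1 (0.63 ± 0.20), whereas Stxbp5l had 2 lower. The reads at the Stxbp5l leading site (chr16:37224801-37226200, intronic) were 64.7, 73.7 and 79.1 against 118, 118 and 124 (-0.72 ± 0.18). Cplx1, a complexin gene, had 1 lower site.

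Cadps2 had 1 higher and 1 lower H3K27me1 site in this table and was the member called in most tables, 4 of the 5. Its leading ELS site (chr6:23517001-23518400, intronic) was lower, with 28.1, 31 and 47.6 reads against 69.2, 71 and 73.2 (-1.02 ± 0.21). Stxbp6 also had 1 of each, the leading one higher (chr12:45020601-45021600, intronic) with 46.7, 68.8 and 84.2 against 33.1, 35 and 45.5 (0.77 ± 0.23). Of the synaptotagmin genes, Syt2 and Syt9 had 1 higher site each and Syt1 1 lower. The Syt2 site (chr1:134744601-134745700, intronic) held 31.7, 32.1 and 37.8 reads against 14.6, 17.4 and 18.8 (0.96 ± 0.19). Its enrichment over IgG was 0.93 against 0.48, so the signal was below IgG in both groups. SNARE genes had 2 higher sites, in Vamp1 and Stx2, and 3 lower, 2 in Stx4a and 1 in Stx6. Snap91 had 1 lower site (chr9:86842801-86844000, intronic), with 51.3, 51.8 and 59.6 against 85.0, 86.3 and 105 (-0.75 ± 0.19).

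The ELS groups did not overlap at any of the 41 member sites, nor at 99.0% of all called sites. Enrichment over IgG went the same way as the reads at 19 of the 21 higher sites (90.5%, against 98.6% of all higher sites) and at all 20 lower ones. It went the other way at the leading sites of Erc2 (1.94 against 2.06 in controls) and Stxbp5 (3.23 against 3.93). Other higher Erc2 sites were below IgG in both groups (0.64 against 0.28 and 0.69 against 0.38). With limma the unadjusted p was below 0.05 at 40 of 41 (97.6%, against 98.2% of all listed sites), and 0 passed adjustment over 1287727 windows (smallest adjusted p 0.0896), whereas 18 passed with a pseudocount of 5, 20 with median-ratio library factors and 38 with a trended limma fit. Of the 40 pathway partners, 12 had a site, beside 13.6% of all genes and 55.8% of those of 100 kb or more. These had 12 higher and 8 lower sites, led by Sh3gl2 with 3 higher and 1 lower and Synpr with 3 lower. For cell type markers the counts were 2 of 7 astrocyte, 2 of 7 oligodendrocyte, 1 of 6 microglial and 0 of 5 vascular genes, beside the same 13.6%. The part of these markers in the result was not tested. A further 2 ELS sites were listed but missed the adjusted p of 0.05 in the authors' deposited table, 1 in Cadps (0.157) and 1 in Pclo (0.084).

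Members with a called site in 3 or more tables numbered 13 (17.8%, against 4.14% of all genes), all of 100 kb or more, a length at which 25% of all genes and 56.5% of members met this count; among shorter genes 1.46% did, and no member. They were Rims1, Rims2, Ppfia2, Pclo, Erc1, Erc2, Unc13c, Stxbp5, Stxbp5l, Stxbp6, Syt2, Snap91 and Cadps2. All but Cadps2 were called in each of the 3 H3K27me1 tables. Members with no site in any table included the plasma membrane and vesicle SNARE genes Snap25 and Vamp2, the scaffold gene Bsn, the priming gene Unc13a, Rims3, Rims4 and the complexin gene Cplx2. Most of these are short, and of the 36 the longest were Cadps and Sv2b. An uncalled gene is one without a site past the authors' limits, not one shown to be unchanged.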

How the data were processed

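The 72 CUT&RUN samples fall into 21 groups by antibody and treatment as labelled, and the 5 tables used here draw on 30 libraries in 8 of these groups. Per the submitters' processing notes, the tools were Bowtie2 2.4.1 with the mouse build mm10, MACS2 2.2.6 and SAMtools 1.10, beside the trimmers cutadapt 2.10 and Trim Galore 0.6.5. Per the file headers, the authors ran diffReps 1.55.4 on 1000-bp windows that moved by 100 bp, with fragments set to 100 bp, kept windows with p below 0.0001, and used IgG as background. The test named there is a G-test in the 4 chronic defeat tables and a negative binomial test in the ELS table. The authors divided the read count of each library in a site by 1 normalisation constant per library, and the deposited cell joins the values of a group's libraries. The deposited signal is the group mean of these values, and the deposited ratio is the enrichment of a group over IgG. The log2 fold change of each site was deposited by the authors and compares the group means. The p-value of each site and its Benjamini-Hochberg adjustment over all tested windows were also deposited by the authors.

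A site was counted as called where the authors' adjusted p was below 0.05. Genes came from GENCODE M21, autosomes only. Group differences over libraries were fitted with limma 3.58.1 in R 4.3.3 on log2(normalised reads + 1) over all listed sites of a table, with Benjamini-Hochberg adjustment over the windows tested, those not listed being counted as not passing. The script was tested on simulated data. Because a site is listed only if it passed the authors' test of the same contrast, the limma p-values describe spread and give no independent evidence. Values per library are given for the leading sites of the 10 members with most sites in each H3K27me1 defeat table, of 6 in each other table, and of members called in 3 or more tables; a site shown outside this rule was chosen after its values were seen, namely the Vamp4 and Sv2c sites, the further Cadps2 H3K27me2 sites and the exons printed. The members, gene lists and tests were chosen with earlier results of these data known. Alternatives were other thresholds, filters, assignments, pseudocounts, library factors, a trended limma fit and leaving out each library. No interval or floor is given for single values, since the reads are normalised. Some items are not reported here.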

Additional observations from a re-analysis of the deposited data

Results flagged for a closer look

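Of 62 groups of 4 libraries at the leading sites, 4 held a library whose gap to the nearest other, divided by the group's range, exceeded Dixon's 95% critical value, which chance exceeds in about 1 in 20 groups. In resilient mice, H3K27me1 library 27 was highest both at the Stx12 site (275.83 normalised reads, the others 222.55 to 225.01) and at the Erc1 site (149.83, the others 115.64 to 118.6). Control library 25 was highest at the Pclo site of the resilient table, with 194.25 against 174.22 to 176.24 in the others. For H3K27me2, susceptible library 59 held 97.05 reads at the Cadps2 site and the others 74.06 to 76.34. In all 4 cases the groups did not overlap, as at 38 of the 44 leading sites, 13 of which were ELS sites. Over all called sites the groups did not overlap at 52.8% to 58.6% in the defeat tables and at 99.0% in the ELS table. Leading sites were picked by the smallest authors' p of the same contrast.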

How the results depend on the processing

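Counts of called member sites in the 4 defeat tables stayed within 1.5 times under every threshold, filter and assignment tried. In the ELS table, 13 of 21 higher and 10 of 20 lower sites had an authors' adjusted p below 0.01, and 9 higher sites had a mean of at least 50 reads. Leaving out each library in turn, H3K27me1 member sites with a limma p below 0.05 numbered 95 to 121 higher and 13 to 15 lower in susceptible mice. They numbered 43 to 51 and 28 to 30 in resilient mice, and 19 to 20 and 20 to 20 in the ELS table. For H3K27me2 there were 2 to 3 higher sites in susceptible mice and 1 lower site in resilient mice. In every comparison 0 passed adjustment over all windows. In the ELS table, adjustment passed 18 member sites with a pseudocount of 5, 38 with a trended limma fit and 20 with median-ratio library factors, against 0 otherwise; the cause was not tested. Those factors centre each list, in which most ELS sites were higher, and with them 1 ELS member site was higher in limma, the Pclo leading site turned to -0.31, 0 H3K27me2 sites in susceptible mice had a p below 0.05 and 1 in resilient mice passed adjustment. Of 502 values recomputed for the 44 leading sites, 485 kept direction and side of the threshold, 15 lost the threshold, 1 gained it and 1 reversed. No paired analysis was made, because the labels give each library its own number and name no shared batch or animal. Whether libraries with neighbouring numbers were handled together is not stated. The planned edgeR and DESeq2 fits were not run, as the deposited values are normalised. The tables hold listed windows alone, and no value is known for a window that was not listed.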
